A study of Homo sapiens with 10 samples.

Results

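The genes described here encode subunits of the ATP-dependent chromatin remodeling complexes. They comprise 16 genes of the BAF family, 8 CHD ATPases, 8 further subunits of NuRD, 5 genes of the ISWI complexes and 5 genes of the INO80, SRCAP and EP400 complexes. These 42 genes were taken from a list of symbols and not from measured values, out of 20033 protein-coding genes with a canonical start on chromosomes 1 to 22, X and Y. All 42 were found in the annotation, all lie among the 19111 autosomal genes, and each had a listed nucleosome position on both sides of its start, so no member was lost to a filter.

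The positions came from human induced pluripotent stem cells (hiPSCs) of the line PB010.5, a single line that carries a FUCCI cell cycle reporter in the EEF2 locus. Their chromatin was exposed for 5 min to micrococcal nuclease (MNase), an enzyme that digests linker DNA, in amounts of 0.5 U, 1 U and 3 U at the lower end and 6 U and 10 U at the upper end. Each of the 5 digestions was made into 1 library with a yeast spike-in, and each library was sequenced with 150-bp and again with 50-bp paired-end reads, which gives 10 samples with no replicate digestion at any concentration. The deposited list pools libraries, does not name the runs it used and holds no value per concentration, so groups could not be compared and no test was possible. The study's methods state that the 50-bp runs were not taken further. No expression was measured, and the cell type label could therefore not be checked against marker genes.

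Remodelers use ATP to slide, evict or exchange nucleosomes. BAF complexes open promoters and enhancers, NuRD joins a CHD ATPase to histone deacetylases, ISWI complexes space nucleosomes evenly, and INO80 and SRCAP handle the histone variant H2A.Z. Active promoters usually hold a nucleosome-depleted region (NDR) around the transcription start site (TSS), bounded upstream by the −1 nucleosome and downstream by the +1 nucleosome, and several remodeler subunits are known to act in the maintenance or exit of pluripotency.

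The list holds 12921589 positions of 140 bp, each with a score in signal units with a scaling that the sources do not explain. The scores moved in steps of 1.23, and 99.999845% of them were within 0.01 of a step of a whole multiple. The median score over the list was 14.8, with quartiles of 9.87 and 19.7. A position was located by its midpoint relative to the canonical start. The nearest midpoint downstream is called the +1 position here, the nearest upstream the −1 position, and the distance between them the gap. Most midpoints lie on a 10-bp grid, so smaller differences in distance have no meaning. A total of 656 positions lay within 1500 bp of the 42 starts.

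Reference sequence is shown for the genes with the widest gap and the highest +1 and −1 scores, and for the paralogs with the largest difference in gap, a rank that rests on less than the 10-bp grid. All runs are GRCh38, read 5′ to 3′ on the strand of the gene and outside every annotated exon. Capitals mark matches on either strand to the SP/KLF box GGGCGG, the CCAAT box, the ETS letters CCGGAAG, the TATA box TATAAA, the NRF1 letters GCATGCGC, the YY1 letters ATGGCGG, or a run of 8 A or T. The first run lies between the −1 position and the start of MBD3 (chr19:1592866-1593101, minus strand), holds no listed midpoint, and has a GC content of 75.4% with 32 CpG dinucleotides.
MBD3: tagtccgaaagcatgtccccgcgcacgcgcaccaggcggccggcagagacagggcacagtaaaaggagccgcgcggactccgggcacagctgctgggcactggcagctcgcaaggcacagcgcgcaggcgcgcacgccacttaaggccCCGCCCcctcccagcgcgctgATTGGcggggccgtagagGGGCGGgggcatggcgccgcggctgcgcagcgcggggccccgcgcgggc
The next run is the whole +1 position of DPF2 (chr11:65333922-65334061, plus strand), which lies in the first intron and has a GC content of 62.1% with 6 CpG dinucleotides.
DPF2: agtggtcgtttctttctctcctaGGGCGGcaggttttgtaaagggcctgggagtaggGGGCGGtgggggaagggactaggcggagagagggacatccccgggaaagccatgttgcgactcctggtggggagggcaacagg
The −1 position of INO80 (chr15:41116302-41116441, minus strand) has a GC content of 75.7% with 19 CpG dinucleotides.
INO80: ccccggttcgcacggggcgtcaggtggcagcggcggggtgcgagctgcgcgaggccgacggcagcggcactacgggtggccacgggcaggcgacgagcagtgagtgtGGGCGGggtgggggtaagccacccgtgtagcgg
Of the −1 position of MTA2, 76 bp lie upstream of the start and outside exons (chr11:62601866-62601941, minus strand), and they hold the ETS letters on both strands in 1 overlapping stretch.
MTA2: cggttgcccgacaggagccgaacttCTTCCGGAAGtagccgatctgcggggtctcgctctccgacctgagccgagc
Of the −1 position of MTA3, 55 bp lie outside the exons of every annotated transcript (chr2:42568462-42568516, plus strand), and they open with a CCAAT match.
MTA3: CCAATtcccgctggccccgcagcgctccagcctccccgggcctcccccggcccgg

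The starts of most remodeler genes lay outside the listed positions, which is not a measure of accessibility. The start lay inside a 140-bp position in 13 of 42 members (31.0%), against 52.1% of the 18569 autosomal protein-coding genes with a position on both sides, and against 49.1% of the other genes weighted to the members' promoter GC content. Promoter GC content was taken over 1000 bp centered on the start, and genes were divided by it into deciles. The members' promoters had a median GC content of 68.1%, compared with 61.5% in the other genes. The covered starts were those of ARID1B, BAZ1A, BAZ1B, CHD1, EP400, GATAD2A, MTA2, RUVBL2, SMARCA2, SMARCA4, SMARCC2, SMARCD1 and SMARCD3. By family, they were 6 of 16 BAF genes, 1 of 8 CHD genes, 2 of 8 NuRD genes, 2 of 5 ISWI genes and 2 of 5 INO80 genes. Counting only positions at or above the median score left 4 covered starts, against 30.1% of the other genes. At the 5′-most annotated start of each gene the count was 16, against 56.5%.

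**Figure D1:**
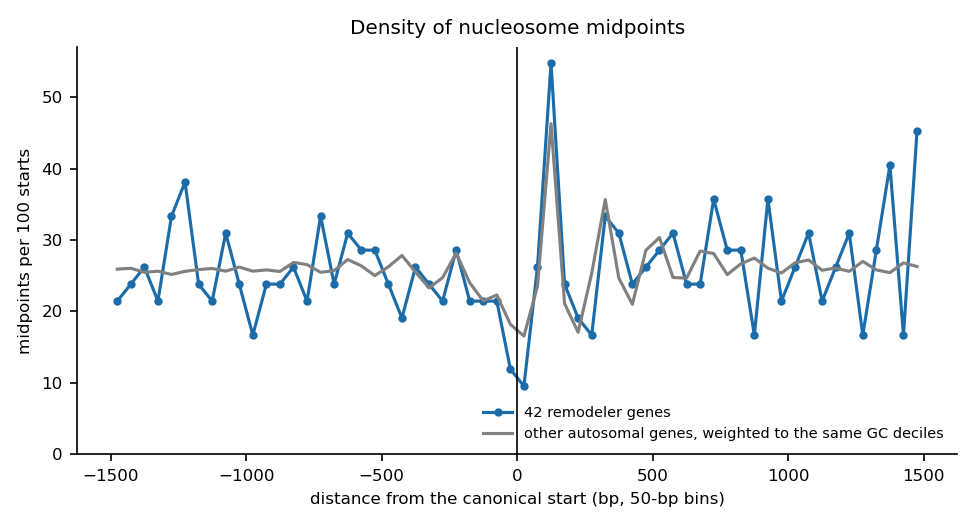
Midpoints per 100 starts in 50-bp bins (y axis) against the distance from the canonical start in bp (x axis), for the 42 remodeler genes (blue points) and the other autosomal genes weighted to the same GC deciles (gray line). The members drop to 9.52 midpoints per 100 starts in the first 50 bp downstream, where the other genes hold 16.5, and rise to 54.8 against 46.3 from 100 to 150 bp.

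Around the starts, the bin just upstream held 5 midpoints and the bin just downstream held 4, or 11.9 and 9.52 per 100 starts, compared with 18.2 and 16.5 in the other genes. The bin from 100 to 150 bp downstream held 23 midpoints, or 54.8 per 100 starts, compared with 46.3. These bins rest on few midpoints each, as the scatter of the members' line away from the start shows.

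The gap had a median of 260 bp over the members, with quartiles of 203 and 324 bp and a range from 100 to 530 bp. Over the other autosomal genes the median was 220 bp, with an SD of 6.60 bp between the medians of the 22 autosomes, and weighted to the members' GC deciles it was 230 bp. That SD comes from far larger groups of genes and is not the error of a median over 42. A gap above the median of the GC decile was found in 26 of 42 members (61.9%), against 47.7% of all genes. Other settings gave counts from 22, with positions at or above the lower quartile of the score, to 26, with the 500 genes nearest in promoter GC. A gap of 300 bp or more was found in 13 members (31.0%), against 27.2%, and a gap at or above the 90th percentile of the decile in 5 members (11.9%), against 10.6%. No midpoint lay in the 200 bp upstream of 13 members (31.0%), against 23.7%. Without the BAF genes the median gap of the other 26 members was 230 bp, the GC-weighted value of the other genes, and without the CHD and NuRD genes it was 245 bp.

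**Figure D2:**
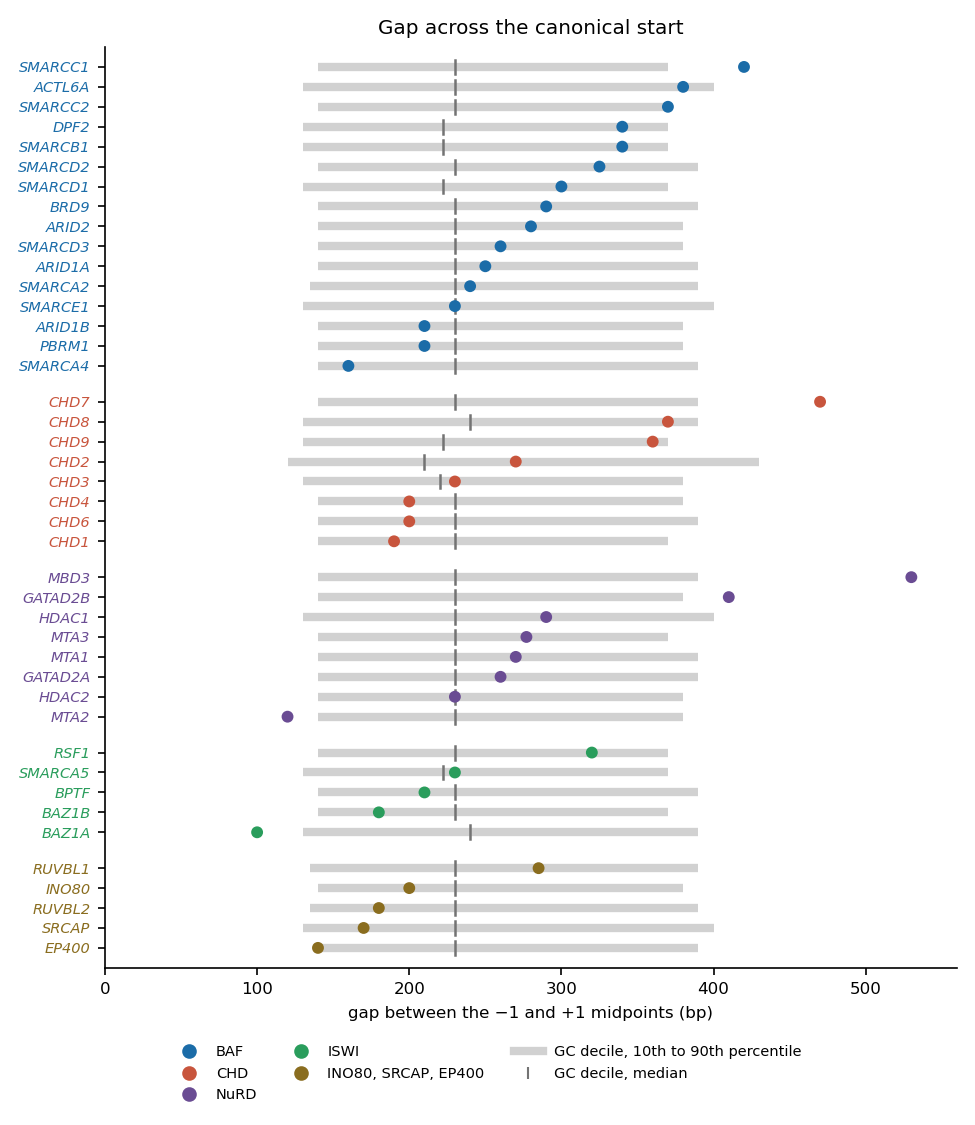
Gap between the −1 and +1 midpoints in bp (x axis) for each member (points, colored by family), over the 10th to 90th percentile range of its GC decile (gray bars) and the decile median (ticks). MBD3 at 530 bp, CHD7 at 470 bp, SMARCC1 at 420 bp and GATAD2B at 410 bp lie to the right of their bars, and MTA2 at 120 bp and BAZ1A at 100 bp lie to the left.

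The members' −1 midpoints lay farther from the start than those of other genes, and their +1 midpoints at about the same distance. The +1 midpoint had a median location of 117.5 bp in the members, compared with 110 bp in the other genes (SD 2.76 over autosomes). The −1 midpoint had a median location of −149.5 bp, compared with −120 bp (SD 7.62) and with −123 bp after weighting to the members' GC. The +1 difference was within the 10-bp grid, and the −1 difference was not. The −1 difference came within the grid when only positions at or above the median score were used (−212.5 and −205 bp), or the highest-scoring midpoint within 400 bp (−235.5 and −227 bp).

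The +1 score had a median of 23.4 in members and in other genes (SD over autosomes 1.18), and of 22.2 in the other genes weighted to GC. The −1 score had a median of 17.3 in all of these (SD 1.03). Under other settings the +1 medians lay on either side of each other, at 27.1 in members and 24.7 in other genes once lower-scoring positions were dropped at the list median, and at 19.1 and 22.2 at the 5′-most starts. At the upper end of the +1 scores, 10 of 42 members (23.8%) were at or above the 90th percentile of their GC decile, against 11% of all genes. These were DPF2, SRCAP, CHD2, SMARCE1, CHD4, PBRM1, ACTL6A, CHD9, SMARCA5 and ARID1A. None of their starts lay inside a position, but the share of covered starts among all genes with scores this high was not counted. At the 5′-most annotated starts only 6 of 42 members reached the 90th percentile, and the share of all genes there was not counted. The +1 score was above the decile median in 23 members (54.8%), against 47.6%. That count was 18 at the 5′-most starts, 20 with GC content taken over 300 bp and 21 with the highest-scoring midpoint. With the 500 genes nearest in promoter GC as the comparison it stayed at 23. Of the 37 members without another protein-coding start within 1000 bp, 18 were above the decile median (48.6%). For the −1 score, 4 members were at or above the 90th percentile (9.52%), against 11%, and 19 were above the median (45.2%), against 47.8%. The +1 score exceeded the −1 score in 24 members (57.1%), against 60.9%.

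**Figure D3:**
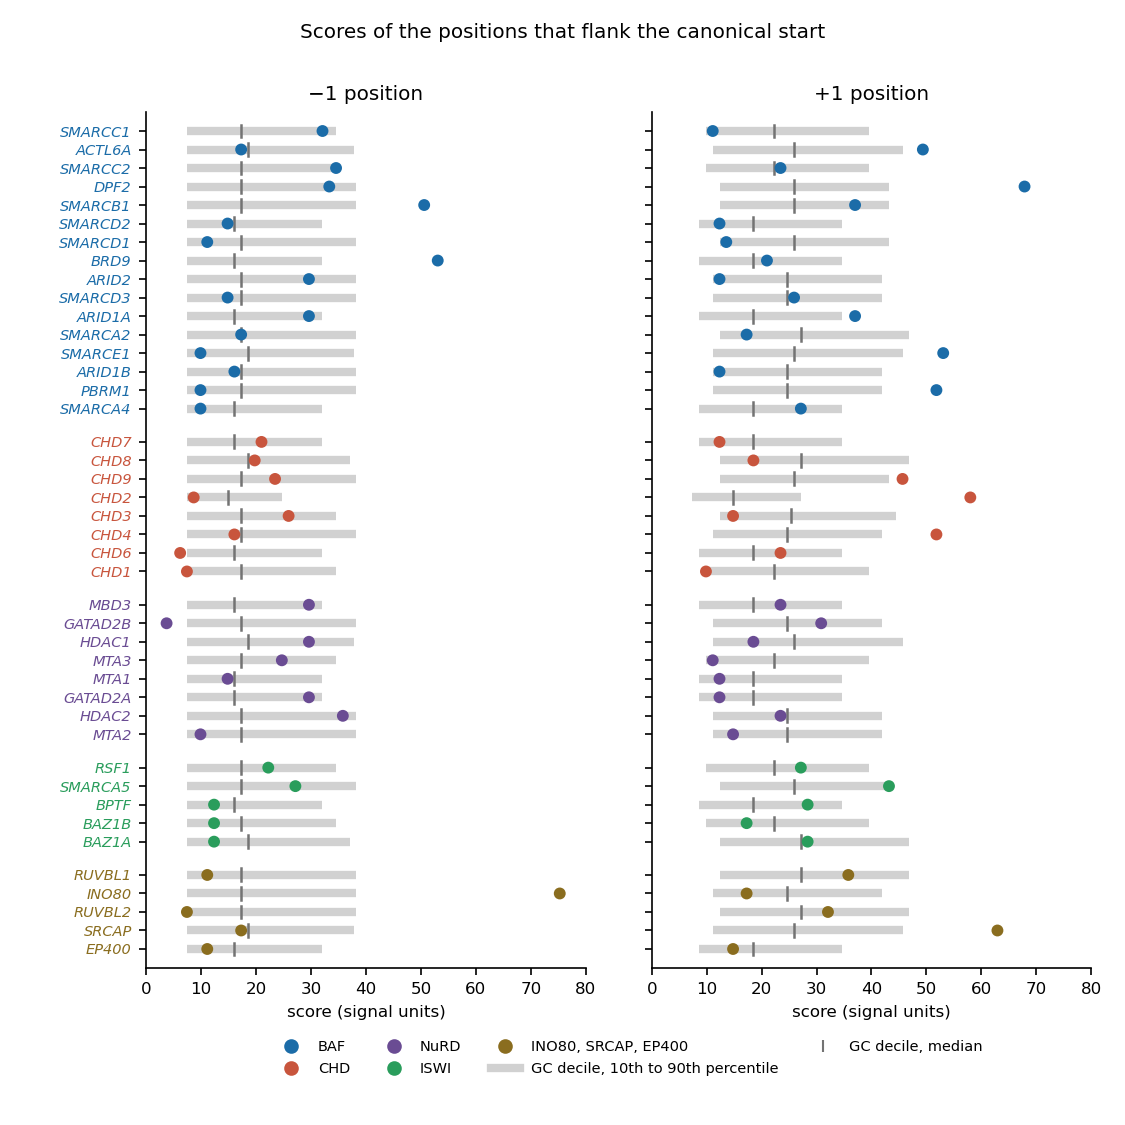
Scores in signal units (x axes) of the −1 position (left) and the +1 position (right) for each member (points, colored by family, ordered by gap), over the 10th to 90th percentile range of its GC decile (gray bars) and the decile median (ticks). On the right, 10 members (23.8%, against 11% of all genes) reach or pass the end of their bars, with DPF2 highest at 67.9. None of the 10 is among the 8 further NuRD subunits, but CHD4, a motor of NuRD, is 1 of the 10. On the left INO80 stands farthest out at 75.3.

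Most BAF genes had gaps above the median of their GC decile, the motor subunit SMARCA4 being the clearest exception. SMARCA4 (BRG1), the ATPase of most BAF complexes, had the narrowest gap of the family at 160 bp. Its −1 midpoint lay at −18 bp with a score of 9.87, so that the start itself was covered, and its +1 midpoint lay at 142 bp with a score of 27.1. SMARCA2 (BRM), the alternative ATPase, had a gap of 240 bp and a score of 17.3 on both sides. SMARCC1, a scaffold of the complex, had the widest gap of the family at 420 bp and the lowest +1 score at 11.1, next to a −1 score of 32.1. Its paralog SMARCC2 had a gap of 370 bp. The SMARCC2 start was covered by a +1 position at 1 bp with a score of 23.4, whereas the −1 midpoint lay at −369 bp. In all, 12 of 16 BAF genes had a gap above the median of their GC decile, against 47.7% of all genes, and the family median was 285 bp.

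DPF2, a PHD finger subunit that reads acetylated histones, had the highest +1 score of all members. The score was 67.9 at 140 bp from the start (chromosome 11, 65333852), against a decile median of 25.9, which is percentile 99.4 of the decile. The next position downstream scored 37.0 at 340 bp. SMARCE1, the HMG-box subunit, scored 53.1 at 106 bp, PBRM1, the bromodomain subunit that marks PBAF, scored 51.8 at 121 bp, and ACTL6A, an actin-related subunit, scored 49.4 at 156 bp. The divergent gene GNL3 starts at −119 bp from PBRM1, and the −1 position of PBRM1 covers the start of GNL3. At the −1 position, 3 of 16 BAF genes (18.75%) were at or above the 90th percentile of their decile, against 11% of all genes. BRD9, the bromodomain subunit of the noncanonical complex, scored 53.1 at −201 bp, SMARCB1, a core subunit, scored 50.6 at −204 bp, and SMARCC2 scored 34.5, equal to that percentile. The divergent gene TRIP13 starts at −83 bp from BRD9. The −1 position of BRD9 is therefore also the nearest position downstream of the TRIP13 start.

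The ARID subunits, which define the BAF and PBAF forms, differed more in score than in gap. ARID1A had a gap of 250 bp and a +1 score of 37.0. ARID1B had a gap of 210 bp and a +1 score of 12.3, and ARID2 had a gap of 280 bp with the same +1 score of 12.3. The SMARCD paralogs had gaps of 300 bp (SMARCD1), 325 bp (SMARCD2) and 260 bp (SMARCD3), although the start fell at different places within them. The nearest downstream midpoint of SMARCD1 lay at 0 bp with a score of 13.6, and the next lay at 120 bp with a score of 49.4. That of SMARCD3 lay at 242 bp with a score of 25.9, and that of SMARCD2 at 128 bp with a score of 12.3. For SMARCD1, taking the highest-scoring midpoint within 300 bp as the +1 position would therefore raise its score from 13.6 to 49.4. The nearest midpoint was also the highest within 300 bp in 35 of 42 members (83.3%) and in 77.5% of the other genes.

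**Figure D4:**
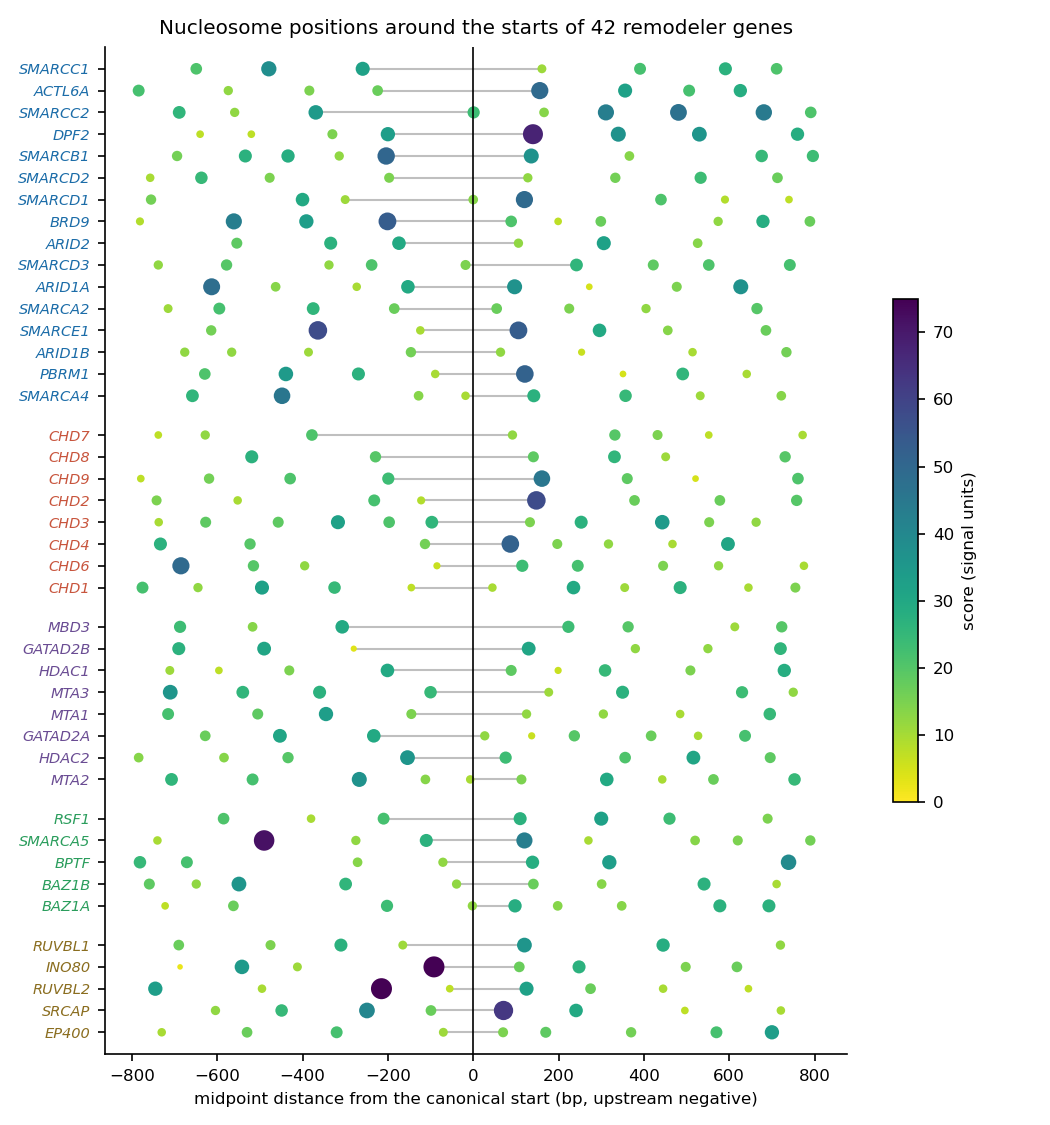
Midpoints of listed positions within 800 bp of the canonical start (x axis, bp) for each member (rows, grouped by family and ordered by gap), with color and point size giving the score in signal units and a gray line joining the −1 and +1 midpoints. The line runs from −307 to 223 bp in MBD3 and from −2 to 98 bp in BAZ1A, and single high-scoring positions stand at −92 bp in INO80, −215 bp in RUVBL2 and −490 bp in SMARCA5.

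The CHD ATPases carry paired chromodomains that bind histone tails, and CHD3 and CHD4 are the motors of NuRD. Their gaps ran from 190 bp in CHD1 to 470 bp in CHD7, with a median of 250 bp. CHD7 had its −1 midpoint at −378 bp, the farthest upstream of all members, and low to middling scores on both sides, 21.0 upstream and 12.3 downstream. The strongest position within 1500 bp of its start also scored 21.0, the lowest such maximum of the 42 genes. CHD8 had a gap of 370 bp and CHD9 one of 360 bp. Their +1 midpoints lay at 141 bp with a score of 18.5 and at 161 bp with a score of 45.7. CHD6 had a gap of 200 bp, with a −1 score of 6.17 and a +1 score of 23.4. CHD1 had the lowest +1 score of all members at 9.87, and it was the only CHD gene whose start was covered. Its next position, at 235 bp, scored 29.6.

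CHD2 stood apart from the others in base composition. Its canonical start lies in a promoter of 43.1% GC, the lowest of the members, and its +1 score of 58.0 at 148 bp compared with a decile median of 14.8, which placed it at percentile 99.9. CHD4 had a +1 score of 51.8 at 87 bp and its paralog CHD3 one of 14.8 at 133 bp. With the nearest midpoint as +1, this was the largest +1 difference of any paralog set at 37.0 signal units. The next position of CHD3, at 253 bp, scored 27.1. The gaps of CHD4 and CHD3 differed by 30 bp (200 bp in CHD4 and 230 bp in CHD3). Another protein-coding gene on the same strand starts 12 bp from CHD4, so the same positions are counted for both.

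Among the remaining NuRD genes the family median gap was 273.5 bp, and 6 of 8 genes were above the median of their GC decile, against 47.7% of all genes. The median +1 score was 16.7 and the median −1 score 27.1. The +1 score exceeded the −1 score in 2 of 8 genes, GATAD2B and MTA2, against 60.9%, and it was above the decile median in 2 of 8, GATAD2B and MBD3, against 47.6%. At the 90th percentile of +1 scores, which 11% of all genes reach, 0 of 8 were counted. MBD3, the methyl-CpG-binding domain subunit, had the widest gap of all members at 530 bp (chromosome 19, 1592865, percentile 96.7 of its decile). Its −1 position scored 29.6 at −307 bp and its +1 position 23.4 at 223 bp. GATAD2B, a zinc finger scaffold, had a gap of 410 bp and the highest +1 score of the family at 30.8. Its −1 position at −280 bp scored 3.70, the lowest −1 score of all members and 3 steps of the scale. Its paralog GATAD2A had a gap of 260 bp with scores of 29.6 upstream and 12.3 downstream.

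The MTA subunits, which recruit the deacetylases, differed widely in gap. The gap was 120 bp in MTA2, 270 bp in MTA1 and 277 bp in MTA3, a range of 157 bp, which is within the 10-bp grid of the 150 bp between GATAD2A and GATAD2B. The narrow gap of MTA2 came from a −1 midpoint at −7 bp. Their +1 scores were all low, at 14.8 in MTA2, 12.3 in MTA1 and 11.1 in MTA3, the lowest of the family. HDAC1 and HDAC2, the deacetylases, resembled each other, with gaps of 290 and 230 bp, +1 scores of 18.5 and 23.4 and −1 scores of 29.6 and 35.8.

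In 5 of 5 ISWI genes the +1 position scored higher than the −1 position, as it did in 60.9% of all genes, and the family medians were 28.4 and 12.3. SMARCA5 (SNF2H), the motor, had a gap of 230 bp, a +1 score of 43.2 at 120 bp and a −1 score of 27.1 at −110 bp. A position at −490 bp in front of it scored 71.6. BPTF, the large subunit of NURF, had a gap of 210 bp and RSF1, the partner of SMARCA5 in RSF, one of 320 bp, the widest of the family. The other partners of SMARCA5 were BAZ1A (ACF1) and BAZ1B (WSTF). BAZ1A had the narrowest gap of all members at 100 bp, a minimum that other genes share. Its −1 midpoint lay at −2 bp, on the start itself. At its 5′-most start, 287 bp away, the gap was 360 bp. BAZ1B had a gap of 180 bp and the lowest +1 score of the family at 17.3. The divergent gene AAMDC starts at −422 bp from RSF1.

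The INO80, SRCAP and EP400 genes had a median gap of 180 bp, and 1 of 5 exceeded the median of its GC decile, against 47.7% of all genes. EP400 had the smallest at 140 bp, with midpoints at −70 and 70 bp that scored 11.1 and 14.8. SRCAP had a gap of 170 bp with a +1 score of 62.9 at 71 bp, at percentile 98.1 of its decile. INO80 (chromosome 15, 41116280) had a gap of 200 bp and the reverse arrangement, a −1 score of 75.3 at −92 bp and a +1 score of 17.3 at 108 bp. Its −1 score lay at percentile 99.8 of its decile and was the highest of all members. RUVBL1 and RUVBL2, the AAA+ helicase partners shared by these complexes, had gaps of 285 and 180 bp and +1 scores of 35.8 and 32.1. RUVBL2 had a −1 score of 7.40 at −55 bp, and behind it, at −215 bp, a position of 75.3. The divergent gene GYS1 starts at −578 bp from RUVBL2.

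Across the families, the 14 motor ATPases had a median gap of 215 bp. The other 28 members, RUVBL1 and RUVBL2 among them, had one of 278.5 bp. The median +1 scores were 21.0 and 23.4 and the median −1 scores 17.3 and 16.7. The ATPases' starts were covered in 4 of 14 cases (28.6%), against 52.1% of all genes. Of the ATPases, 5 of 14 (35.7%) were at or above the 90th percentile of +1 scores, against 11%, namely CHD2, CHD4, CHD9, SMARCA5 and SRCAP.

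The −1 score was higher where the −1 midpoint lay farther from the start, in members as in other genes. It had a median of 12.3 in the 13 members whose −1 midpoint lay under 100 bp away, 16.0 in the 15 from 100 to under 200 bp and 29.6 in the 14 at 200 bp or more. In the other genes the medians were 14.8, 18.5 and 22.2. Single genes departed from this order, among them INO80 at 75.3 in the first class and GATAD2B at 3.70 and SMARCD1 at 11.1 in the last. Downstream, the distance from the +1 to the next position had a median of 180 bp in members and in other genes alike, and the +2 score a median of 19.1 in the members.

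**Figure D5:**
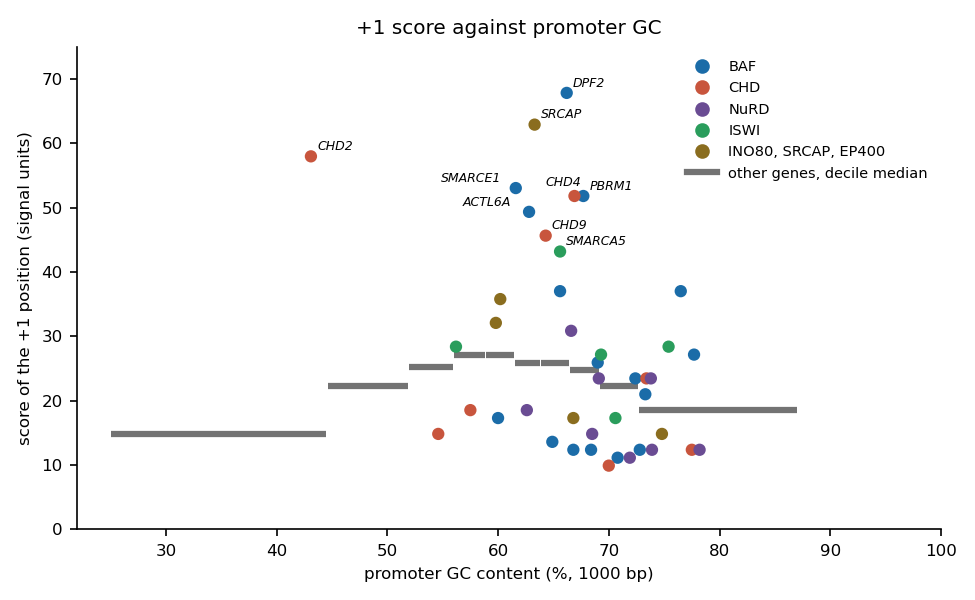
Score of the +1 position in signal units (y axis) against promoter GC content in percent over 1000 bp (x axis) for each member (points, colored by family), with the median of the other genes in each GC decile (gray lines). Members above 42 signal units are named, and apart from CHD2 at 43.1% GC these lie between 61.6% and 67.7% GC.

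The +1 scores of the members varied with promoter GC content, though not evenly. Spearman's rho over the 42 members was −0.41, compared with 0.03 over the 18580 other genes with a +1 position, and both are descriptions across genes of 1 list, which share libraries and local base composition. Among the 11 members of the top decile (72.7% GC and above) the median was 21.0, compared with 18.5 in the other genes. In the sixth and seventh deciles, with 4 and 5 members, it was 51.2 and 43.2, compared with 25.9 in the other genes of each. Other deciles broke this order: the third, with 1 member, stood at 14.8 (other genes 25.3), the fourth, with 2 members, at 23.4 (27.1), and the ninth, with 6 members, at 14.2 (22.2), below the top decile. For the −1 score, rho with GC was 0.10 over the members and 0.03 over the 18587 other genes with a −1 position.

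The canonical start was not the 5′-most annotated one in every gene. In 13 members the 5′-most start lay 500 bp or more away, and in another 13 the canonical start was itself the 5′-most. Of the first 13, the gap was wider at the canonical start in 9 (69.2%), the +1 score was higher there in 10 (76.9%), and the GC content was higher there in 11 (84.6%). In the 4062 other autosomal genes with starts as far apart these shares were 53.5%, 54.9% and 73.2%. The canonical start was covered in 4 of the 13 members (30.8%) and the 5′-most start in 9 (69.2%), compared with 53.2% and 66.6% in those other genes. SRCAP scored 62.9 at its canonical +1 position and 39.5 at the 5′-most start 962 bp away. SMARCE1 scored 53.1 and 19.7 at starts 836 bp apart, and CHD2 58.0 and 7.40 at starts 14121 bp apart. MTA3 went the other way, with 11.1 at the canonical start and 29.6 at the 5′-most start. Starts less than 500 bp apart also changed some values. In GATAD2B the gap was 410 bp at the canonical start and 210 bp at the 5′-most start 388 bp away. There its position of 3.70 became the +1 position. The +1 score of RUVBL2 was 32.1 at the canonical start and 75.3 at the 5′-most start 325 bp away. In DPF2 and ACTL6A the 5′-most start lies only 9 bp and 40 bp from the canonical start. The same positions flank both starts there, so the gap and +1 score could not differ.

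A further 41 subunits of the same complexes, 39 of them autosomal, were read for comparison. Their median gap was 240 bp, the median +1 score 25.9 and the median −1 score 19.7. On the autosomes their starts were covered in 16 of 39 cases (41.0%), against 52.1% of all genes. The gap was above the decile median in 22 (56.4%), against 47.7%, and 6 were at or above the 90th percentile of +1 scores (15.4%), against 11%. The last were ACTR8, KAT5, MCRS1, POLE3, RBBP4 and TFPT. ACTL6B, DPF1, DPF3, SS18L1 and CHD5, which are known mainly from neurons and muscle, had a median gap of 230 bp and a median +1 score of 17.3.

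The promoters were searched for the same motifs from 250 bp before to 50 bp after the start. GGGCGG was found on either strand in 35 of 42 members (83.3%), compared with 61.7% of the 19111 autosomal promoters and 82.1% of the other genes weighted to GC. CCAAT was found in 16 (38.1%, compared with 35.7% and 31.3%) and CCGGAAG in 7 (16.7%, compared with 14.2% and 14.5%). ATGGCGG was found in 8 (19.0%, compared with 7.82% and 8.95%), namely BAZ1B, BPTF, CHD2, DPF2, INO80, SMARCC1, SMARCC2 and SMARCD1. GCATGCGC was found in SMARCC1 alone (2.38%, compared with 4.20% and 4.56%). TATAAA was found in 0 of 42, compared with 9.74% and 4.63%. A run of 8 A or T was found in CHD2 and SMARCE1 (4.76%, compared with 5.35% and 2.61%). These are matches of letters and not sites.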

How the data were processed

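MNase-seq libraries of hiPSCs were trimmed by the authors with Trimmomatic (version 0.40, per the submitters' processing notes), aligned to GRCh38, cleared of blacklisted regions and run through the nucMACC workflow. The deposited list pools libraries, and its score is a signal per position that the authors scaled in a way not given in the sources used here. The reads behind a score are unknown, so no sampling error is given. Chromosome names and lengths in the list were checked against the GRCh38 reference.

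Starts are those of the Ensembl canonical transcripts in GENCODE release 44 (the study's methods name release 48). A position's midpoint is its start plus 70 bp, and the nearest midpoint on each side within 1500 bp of the start was used. Other autosomal protein-coding genes served as the comparison, as a whole, in deciles of promoter GC content over 1000 bp, or weighted to the members' deciles. Of the autosomal genes, 542 had no position within 1500 bp on at least 1 side. No count or group was tested, because the list holds no replicates, and no p-value is given. Percentiles are over the gene's decile.

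The members and the lists of families, paralogs, other subunits and motifs were chosen with earlier results of these data known. Named genes are, per family, those with the widest and narrowest gap and the highest and lowest +1 score, all ATPases and all paralog sets, and the other names are the members behind a count, a maximum or a neighboring start, chosen after their values were seen. Alternatives were other starts, score minimums, definitions of the flanking positions, GC strata and sets of members. The functions were tested on simulated data, where 100% of the gaps set at 17195 starts were recovered. Analyses used Python 3.11.15, NumPy 2.4.6, pandas 2.3.3, SciPy 1.17.1 and matplotlib 3.10.9.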

Additional observations from a re-analysis of the deposited data

How the results depend on the processing

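Of 48 values under other settings, 32 stayed within set limits and 16 moved beyond them. The limits were 10 bp for a location or gap, 1 step for a score, or 1.5 times for a count. Most of those 16 were medians, and more medians moved than stayed within the limits. The limit for a count is wide. For the counts of gaps and +1 scores above the decile median, it would also hold a count at the share of all genes. Staying within it therefore does not show that an excess over that share holds. Counting only positions at or above the median score gave a median gap of 380 bp (other genes 340 bp), a +1 location of 131.5 bp (125 bp), a −1 location of −212.5 bp (−205 bp), scores of 27.1 and 26.5 at the +1 and −1 positions (24.7 and 23.4), and 4 covered starts. With positions at or above the lower quartile these were a gap of 278.5 bp (260 bp), a −1 location of −179.5 bp (−153 bp) and a −1 score of 21.6 (19.7). With the highest-scoring midpoint within 300 bp downstream or 400 bp upstream, the −1 location was −235.5 bp (−227 bp) and both scores were 27.1 (25.9 and 24.7). At the 5′-most starts the +1 score was 19.1 (22.2) and 6 of 42 members, down from 10, were at or above the 90th percentile of +1 scores. The median gap was 230 bp without the BAF family and 245 bp without the CHD and NuRD families. In each of these settings except the last 2, fewer or other positions enter by construction. Of the 48 values, 8 were added after seeing the data. No paired analysis was possible because positions were called on pooled libraries without replicates, so no replicate could be left out either. The median gap of the members was above the unweighted median of the other genes in every setting tried. A GC-weighted median of the other genes was computed only for the main setting. It was 230 bp, which the members without the BAF genes did not exceed.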
